A study of Mus musculus with 2 samples.

Results

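The early response genes of the AP-1, Egr and Nr4a families were followed through α4β7-expressing lymphoid progenitors (αLPs) of adult bone marrow and of fetal liver. The set held 10 genes of the 27998 rows that both count matrices share. It was made of Fos, Fosb, Jun, Junb, Jund and Atf3 of the AP-1 family, of Egr1, and of Nr4a1, Nr4a2 and Nr4a3. The genes were taken by symbol, and the set was chosen with earlier results of these data known. All 10 were found in both matrices and reached 10 counts per 1000000 UMIs (CPM) in at least 1 tissue. A UMI is a tag that marks 1 captured RNA molecule.

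Both samples were untreated wild-type B6 mice, with 1 droplet single-cell RNA library per tissue. Adult mice gave the bone marrow, and E14.5 embryos gave the fetal liver. The labels give an age of 6 to 8 weeks for both samples, which cannot hold for the fetal one. Flow sorting took 7AAD-screened CD45+ cells without lineage markers that carried CD127 and α4β7 but neither Flt3 nor CD25. The number of animals behind each library is not given in the sources used here. With 1 library per tissue no difference could be tested, and all intervals are 95% intervals of counting error alone.

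AP-1 is a dimer of Fos, Jun and Atf proteins that binds DNA and is assembled within minutes of a signal. Fos and Fosb encode partners that dimerise with Jun proteins, and Jun, Junb and Jund encode the Jun proteins themselves. Atf3 encodes a stress-induced factor of the same superfamily, and Egr1 a zinc finger factor that is switched on by MAP kinase signalling. Nr4a1, Nr4a2 and Nr4a3 encode orphan nuclear receptors, and Nr4a1 is widely used as a reporter of antigen receptor signalling in lymphocytes. Apart from Jund, which many cells express steadily, these genes are induced without new protein synthesis and their RNAs are short-lived. Their RNAs are also known to be induced while tissue is taken apart for sorting.

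After cells with under 500 genes or over 10% mitochondrial UMIs were left out, 7258 bone marrow cells with 29941097 UMIs and 8583 fetal liver cells with 91285900 UMIs remained. The median cell held 3447.5 UMIs in bone marrow and 9294 UMIs in fetal liver, a 2.70-fold gap. The libraries shared 19 cell barcodes. Cells with at least 2 of 8 cell division markers were 8.90% of the cells in bone marrow and 54.7% in fetal liver. Of the sort genes, Il7r (CD127) stood at 417 CPM in bone marrow and 178 CPM in fetal liver and Itgb7 at 61.8 and 47.9 CPM. Flt3 stood at 1.20 CPM in bone marrow and 1.45 CPM in fetal liver, and Il2ra (CD25) at 7.78 and 1.08 CPM. Markers of other cell types were present in both libraries. Those of T cells, 5 of 8 measured, summed to 14.6 CPM in bone marrow and 320 CPM in fetal liver, those of the B lineage to 33.0 and 119 CPM, those of myeloid, mast or erythroid cells to 218 and 329 CPM, and those of endothelial or stromal cells to 44.6 and 26.1 CPM. Of the T cell sum in fetal liver, Cd3g alone made up 279 CPM. Among bone marrow cells with 4000 to 8000 UMIs, Cpa3 had 227 CPM and Mpo 1.59 CPM. Pecam1 had 46.9 CPM there and Kdr 0.0794 CPM, and Cd79b 29.9 CPM and Cd79a 0.318 CPM. Fetal liver cells of that range had both Cd79b and Cd79a, at 61.7 and 43.1 CPM. These sums therefore do not show how many cells of a named type were present. The 6 hepatocyte markers summed to 6.81 CPM in bone marrow, with Alb, Ttr and Serpina1a at 0, and to 9.60 CPM in fetal liver. Without the B lineage and myeloid, mast or erythroid gates, the median log2 ratio of bone marrow over fetal liver over the 10 genes was 2.10, against 2.16 with them. The part of the T cell, hepatocyte and endothelial or stromal markers was not tested.

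Promoters of the members are shown before the values. Any link between their letters and the levels below was not tested. RefSeq promoters of build GRCm38.p6 were matched for 9 of the 10 members, and the 250 bases before the annotated start were searched on both strands. The letters searched were the cyclic AMP response core TGACG and its full palindrome TGACGTCA, the AP-1 site TGANTCA, the Egr sites GCGTGGGCG and GCGGGGGCG, the Nr4a site AAAGGTCA, the TATA box TATAAA, and the CArG box that serum response factor binds. The core overlaps the full palindrome. Capitals mark the core, which reads CGTCA on the other strand, and the TATA box, which reads TTTATA there. The 5 promoters shown are that of Fos, that of Jun, which held neither, and those of the Nr4a genes.
Fos, chr12:85473640-85473889, plus strand: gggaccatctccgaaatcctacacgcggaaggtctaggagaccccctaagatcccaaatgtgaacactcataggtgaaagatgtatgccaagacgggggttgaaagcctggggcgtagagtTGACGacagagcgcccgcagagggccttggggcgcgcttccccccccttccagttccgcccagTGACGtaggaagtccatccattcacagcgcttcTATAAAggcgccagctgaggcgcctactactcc
Jun, chr4:95052223-95052472, minus strand: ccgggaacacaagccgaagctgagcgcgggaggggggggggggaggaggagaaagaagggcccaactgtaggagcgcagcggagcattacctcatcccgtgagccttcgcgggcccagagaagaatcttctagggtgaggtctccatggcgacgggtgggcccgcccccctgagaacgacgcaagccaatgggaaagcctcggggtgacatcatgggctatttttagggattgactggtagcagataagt
Nr4a1, chr15:101266596-101266845, plus strand: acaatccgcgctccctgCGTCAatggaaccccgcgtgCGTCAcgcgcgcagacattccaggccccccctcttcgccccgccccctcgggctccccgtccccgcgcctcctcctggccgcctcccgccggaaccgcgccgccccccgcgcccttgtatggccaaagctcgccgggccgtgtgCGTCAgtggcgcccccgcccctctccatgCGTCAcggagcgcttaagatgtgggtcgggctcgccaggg
Nr4a2, chr2:57124004-57124253, minus strand: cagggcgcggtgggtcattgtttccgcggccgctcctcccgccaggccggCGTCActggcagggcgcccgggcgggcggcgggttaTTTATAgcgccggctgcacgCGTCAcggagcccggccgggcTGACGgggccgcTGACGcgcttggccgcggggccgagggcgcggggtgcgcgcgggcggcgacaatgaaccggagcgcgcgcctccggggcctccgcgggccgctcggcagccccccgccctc
Nr4a3, chr4:48045055-48045304, plus strand: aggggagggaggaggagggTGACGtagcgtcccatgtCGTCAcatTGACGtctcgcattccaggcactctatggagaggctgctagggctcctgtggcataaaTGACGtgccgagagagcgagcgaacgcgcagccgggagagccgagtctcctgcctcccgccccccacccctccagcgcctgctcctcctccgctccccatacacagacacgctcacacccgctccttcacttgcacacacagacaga

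The core was in 7 of the 9 promoters, against 17.8% of 32851 RefSeq promoters of the same length. Nr4a1, Nr4a2 and Nr4a3 held 4 each, a number reached by 0.137% of all promoters. Fos held 2, Fosb, Junb and Atf3 held 1 each, and Jun and Jund held 0. A TATA box was found in Fos and Nr4a2, against 12.4% of all promoters. The second Egr form was found in Fosb and Nr4a1, against 2.57%. The full palindrome (1.55% of all promoters), the AP-1 site (6.75%), the first Egr form (0.536%), the Nr4a site (1.34%) and the CArG box (1.47%) were in none of these 9 windows. Sites further upstream, or with letters close to these, were not searched. The Jun window holds tgacatca, for example, which matches none of the letters searched. These absences therefore do not show that a gene lacks such a site. The RefSeq starts of Fosb, Junb, Jund, Atf3, Nr4a1 and Nr4a3 differ from the GENCODE gene starts. The Jund window ends upstream of the GENCODE gene, so its 0 does not describe the letters next to that start. The Atf3 and Nr4a1 windows lie inside the GENCODE genes, as does part of the Nr4a3 window with the last of its cores. The 3' UTR held at least 1 AUUUA pentamer, a letter pattern of short-lived RNAs, in 10 of 10 members and in 71.5% of 6501 genes with at least 10 CPM.

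In GENCODE M21 on the same build, Fos lies at chr12:85473890-85477273, Fosb at chr7:19302696-19310051, Jun at chr4:95049034-95052222, Junb at chr8:84974484-84978718 and Jund at chr8:70698949-70700616. Atf3 lies at chr1:191170296-191218039, Nr4a1 at chr15:101254269-101274795, Nr4a2 at chr2:57106830-57124003 and Nr4a3 at chr4:48045153-48086447. Junb overlaps Prdx2 on the opposite strand, and the sources used here do not say whether counting used the strand. Prdx2 had 13412 UMIs in bone marrow and 54563 UMIs in fetal liver. Jun and Jund overlap antisense genes with at most 130 UMIs in either library.

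All 10 genes stood higher in bone marrow than in fetal liver when whole libraries were compared per UMI. Together they took 1.20% of UMIs in bone marrow and 0.406% in fetal liver. The median log2 ratio of bone marrow over fetal liver was 2.16, against -0.01 over the 6938 genes with at least 10 CPM. Past 2-fold toward bone marrow were 10 of 10 members and 10.9% of those genes, and past 2-fold toward fetal liver 0 members and 7.25% of them.

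Fos had 2940 CPM in bone marrow and 651 CPM in fetal liver, a log2 ratio of 2.18 (2.16 to 2.19). Its partner gene Fosb had 708 CPM in bone marrow and 134 CPM in fetal liver, a log2 ratio of 2.40 (2.37 to 2.43). The Jun genes were closer between the tissues. Jun had 2122 CPM in bone marrow and 921 CPM in fetal liver, a log2 ratio of 1.20 (1.19 to 1.22). Junb had 2064 CPM in bone marrow and 808 CPM in fetal liver, a log2 ratio of 1.35 (1.34 to 1.37). Jund had 3082 CPM in bone marrow and 1325 CPM in fetal liver, a log2 ratio of 1.22 (1.21 to 1.23). The 3 Jun intervals lay below those of the other 7 members.

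Atf3 had 198 CPM in bone marrow and 49.3 CPM in fetal liver, a log2 ratio of 2.00 (1.95 to 2.06). For Egr1 the levels were 402 CPM in bone marrow and 91.0 CPM in fetal liver, a log2 ratio of 2.15 (2.10 to 2.19). The nuclear receptor genes had the highest ratios of the set. Nr4a1 had 425 CPM in bone marrow and 71.7 CPM in fetal liver, a log2 ratio of 2.57 (2.52 to 2.61). For Nr4a2 they were 61.5 CPM in bone marrow and 10.4 CPM in fetal liver, a log2 ratio of 2.57 (2.46 to 2.68). Nr4a3 had 26.0 CPM, or 778 UMIs, in bone marrow and 2.18 CPM, or 199 UMIs, in fetal liver, a log2 ratio of 3.58 (3.35 to 3.81).

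**Figure D1:**
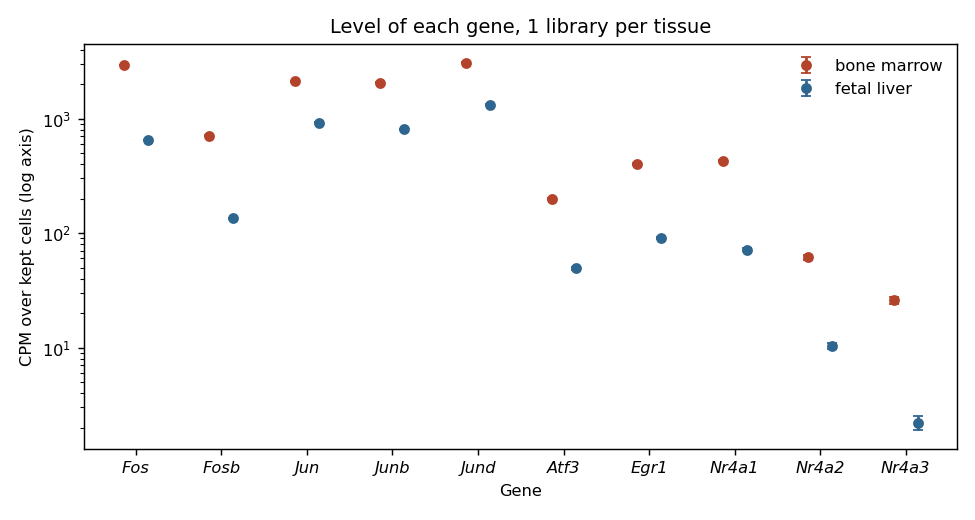
Level of each gene in CPM (log axis) over all kept cells of the bone marrow library (left of each pair) and the fetal liver library (right), 1 library each; bars are 95% Poisson counting intervals, often smaller than the point. The bone marrow point lies above the fetal liver point for all 10 genes, from 1.20 log2 units for Jun to 3.58 for Nr4a3.

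Cell depth moved with this difference. In both libraries the members took a larger share of UMIs in cells with fewer UMIs. Their summed level was 21391, 13749 and 8509 CPM in bone marrow cells of low, middle and high UMIs, split into 3 equal parts, and 6740, 4315 and 3164 CPM in those of fetal liver. By equal parts of low, middle and high mitochondrial share, the summed level was 11830, 11979 and 12334 CPM in bone marrow and 3764, 3964 and 4691 CPM in fetal liver, a narrower range. Counted per cell with no scaling, the members gave a mean of 49.6 UMIs in bone marrow and 43.2 UMIs in fetal liver, while all genes gave 4125 and 10636 UMIs. On that scale Nr4a3 was 4.62-fold, Nr4a2 2.30-fold, Nr4a1 2.30-fold and Fosb 2.04-fold higher in bone marrow, whereas Jun, Junb and Jund were 0.894, 0.991 and 0.902 times the fetal liver value. The direction of the 3 Jun genes between the tissues therefore depended on the scaling. How far differences in RNA per cell or in capture enter these ratios cannot be told apart.

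At matched UMIs per cell most ratios were smaller, and the Jun genes stayed lowest. The ranges matched depth in part only, since the fetal liver cells were the deeper ones within each. The medians were 2934.5 UMIs in bone marrow and 3309 UMIs in fetal liver at 2000 to 4000 UMIs. They were 5235 and 6092 UMIs at 4000 to 8000, and 9672 and 11028 UMIs at 8000 to 16000. The part of this remaining gap in the ratios was not tested. Among cells with 4000 to 8000 UMIs, 2303 from bone marrow and 2710 from fetal liver, the median log2 ratio of the members was 1.25, against -0.05 over all genes. Past 2-fold toward bone marrow were 7 of 10 members, against a background of 8.03%. They were Fos at 1.50, Fosb at 1.40, Atf3 at 1.09, Egr1 at 1.11, Nr4a1 at 2.16, Nr4a2 at 2.39 and Nr4a3 at 2.78. Under 2-fold were Jun at 0.32, Junb at 0.28 and Jund at 0.55. For Fos the levels in these cells were 2571 CPM in bone marrow and 912 CPM in fetal liver, and for Jun 1823 and 1456 CPM.

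Shallower and deeper cells gave a like picture. Among cells with 2000 to 4000 UMIs the median was 1.21 and 5 of 10 members passed 2-fold, against a background of 9.01%. Here Egr1 was at 0.74, Atf3 at 0.97 and Jun at 0.16, with 552 fetal liver cells. Among cells with 8000 to 16000 UMIs the median was 1.33 with 7 of 10 members, against a background of 6.13%. Nr4a1 at 2.74 in the shallower and Nr4a3 at 3.64 in the deeper range were not smaller than over whole libraries. In all 3 ranges each Jun gene had a lower ratio than each of the other 7 members.

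**Figure D2:**
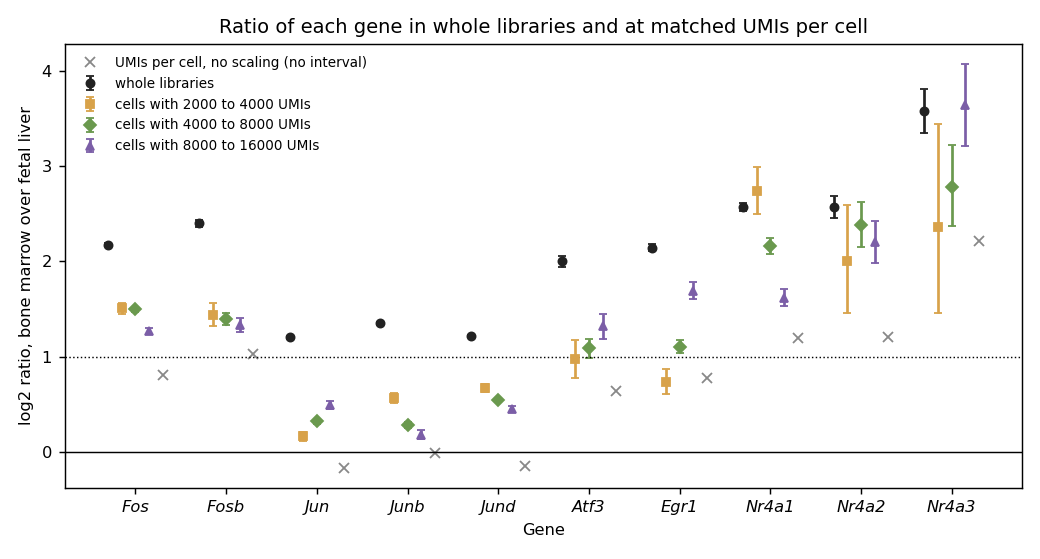
The log2 ratio of bone marrow over fetal liver for each gene in whole libraries, in 3 ranges of UMIs per cell, and as mean UMIs per cell with no scaling; bars are exact 95% counting intervals and the dotted line marks 2-fold. Jun, Junb and Jund lie under 2-fold in all 3 ranges and below 0 without scaling, while Nr4a1, Nr4a2 and Nr4a3 stay above 2-fold in each set.

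The make-up of the set itself, which no scaling touches, also differed. Fos and Fosb supplied 30.3% (30.2 to 30.5) of member UMIs in bone marrow and 19.3% (19.2 to 19.5) in fetal liver. Jun, Junb and Jund supplied 60.4% in bone marrow and 75.2% in fetal liver. The Nr4a genes supplied 4.26% in bone marrow and 2.07% in fetal liver. Within cells of 4000 to 8000 UMIs the Fos and Fosb share was 30.5% in bone marrow and 18.4% in fetal liver, and the Jun share 59.6% and 75.7%. Among dividing cells the Fos and Fosb share was 31.8% in bone marrow and 20.3% in fetal liver, and among the others 30.2% and 17.9%. The gap in composition was thus present at like depth and in both division states.

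Over all cells, those that carried division markers had lower member levels in both tissues, and they were also deeper. Their median was 7796 UMIs, against 3235.5 in the other cells, in bone marrow, and 12091, against 6800, in fetal liver. The log2 ratio of dividing over other cells was between -1.23 (Junb) and -0.05 (Nr4a3, interval -0.33 to 0.21) in bone marrow, and between -0.99 (Egr1) and -0.27 (Fosb) in fetal liver. Junb had 983 CPM in dividing and 2306 CPM in other bone marrow cells, and 688 and 1068 CPM in those of fetal liver. With 4000 to 8000 UMIs per cell the summed level was 9813 CPM in dividing and 10211 CPM in other bone marrow cells, and 5101 and 6453 CPM in those of fetal liver. At that depth Junb was at -0.20 in bone marrow and -0.45 in fetal liver. Fosb turned its direction in bone marrow, at 0.55 (0.46 to 0.64), and so did Nr4a3, at 0.52 (0.08 to 0.94). Intervals lay below 0 for 4 of 10 members in bone marrow and 9 of 10 in fetal liver. The share of all genes with an interval below 0 was not computed, so these counts are no trait of the set. Of the members, 9 of 10 passed 2-fold toward bone marrow among cells without these markers, against a background of 8.85%, and 7 of 10 among dividing cells, against 7.18%. Among the cells without them Jun, at 0.87, was under 2-fold.

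Where the genes were used was read from marker gates, in which a cell was placed with the lineage for which it had the most detected markers, at least 2. The gates held none of the 10 genes. Innate lymphoid cells (ILCs) respond to tissue signals without an antigen receptor. The gates covered lymphoid tissue inducer (LTi) or ILC3, NK or ILC1, ILC2 progenitor and PLZF-positive ILC progenitor cells, with early lymphoid, B lineage and myeloid, mast or erythroid cells beside them. Of the cells, 45.4% in bone marrow and 30.0% in fetal liver fell in no gate. At least 50 cells were found in 5 gates of bone marrow and 6 of fetal liver.

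In bone marrow the members peaked in the ILC2 progenitor gate. Their summed level there was 19255 CPM, against 10541 CPM in the NK or ILC1 gate, 10001 CPM in the PLZF-positive gate, 5418 CPM in the myeloid, mast or erythroid gate and 5152 CPM in the early lymphoid gate. Of the 10 members 9 had their highest level in the ILC2 progenitor gate, as did 24% of genes. Nr4a2 was the exception, at 103 CPM in the NK or ILC1 gate and 82.2 CPM in the ILC2 progenitor gate. Its log2 ratio of ILC2 progenitor over NK or ILC1 cells was -0.33 (-0.60 to -0.05). Fos had 4703 CPM in ILC2 progenitor, 2721 CPM in PLZF-positive, 2276 CPM in NK or ILC1, 1086 CPM in myeloid, mast or erythroid and 978 CPM in early lymphoid cells, with the intervals of the myeloid and early lymphoid gates overlapping. Fosb had the widest range, with 1527 CPM in the ILC2 progenitor gate and 186 CPM in the early lymphoid gate. Atf3 was close between ILC2 progenitor cells at 281 CPM and NK or ILC1 cells at 251 CPM, with overlapping intervals. For Nr4a3, at 15.7 to 39.9 CPM, all neighbours in the order of gates overlapped.

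The bone marrow ILC2 progenitor gate also had the fewest UMIs per cell of the gates with 50 cells, a median of 2493.5, against 4944 in the NK or ILC1 gate and 4201.5 in the PLZF-positive gate. At 4000 to 8000 UMIs the summed level was 15541 CPM in ILC2 progenitor, 11568 CPM in NK or ILC1, 9432 CPM in PLZF-positive and 5871 CPM in early lymphoid cells, so ILC2 progenitor cells remained highest in the sum at like depth. Egr1, Atf3 and Nr4a3 did not keep that order. In that range Egr1 had 461 CPM in ILC2 progenitor and 495 CPM in NK or ILC1 cells, Atf3 251 and 291 CPM, and Nr4a3 22.9 and 31.0 CPM, with overlapping intervals in each case. Nr4a2 stayed lower in ILC2 progenitor cells there, at 66.0 CPM against 114 CPM, a log2 ratio of -0.79 (-1.25 to -0.34).

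In fetal liver the peak lay elsewhere. The summed level was 6860 CPM in the LTi or ILC3 gate, 4913 CPM in ILC2 progenitor, 4124 CPM in NK or ILC1, 3512 CPM in PLZF-positive, 2207 CPM in myeloid, mast or erythroid and 2116 CPM in B lineage cells. The highest gate was LTi or ILC3 for 7 of 10 members, as for 24.4% of genes, and ILC2 progenitor for Nr4a1 and Nr4a2, 2 of 10, as for 11.4% of genes. Nr4a3 was highest in NK or ILC1 cells, at 4.15 CPM. Bone marrow had 44 cells in the LTi or ILC3 gate, too few to set beside the fetal ones. The LTi or ILC3 gate had the fewest UMIs per cell of the fetal gates, a median of 6419. In cells of 4000 to 8000 UMIs its summed level was 7774 CPM, against 6323 CPM in ILC2 progenitor and 5138 CPM in NK or ILC1 cells.

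Egr1 and Nr4a1 ran in opposite directions between fetal gates. Egr1 had 257 CPM (245 to 270) in LTi or ILC3 and 54.0 CPM (49.4 to 59.0) in ILC2 progenitor cells. Nr4a1 had 55.9 CPM (50.5 to 61.8) in LTi or ILC3 and 123 CPM (116 to 130) in ILC2 progenitor cells. Among cells of 4000 to 8000 UMIs Egr1 stood at 294 CPM in LTi or ILC3 and 81.0 CPM in ILC2 progenitor cells, and Nr4a1 at 59.2 and 168 CPM, so the opposition was present at like depth. In bone marrow both genes were highest in the ILC2 progenitor gate, Egr1 at 628 CPM and Nr4a1 at 662 CPM. Other members had their own order in fetal liver. Atf3 was as high in B lineage cells, at 97.3 CPM, as in LTi or ILC3 cells, at 101 CPM, with overlapping intervals, although B lineage cells had the lowest Fos, Jun and Egr1 of the 6 gates. At 4000 to 8000 UMIs Atf3 had 199 CPM in 61 B lineage cells and 118 CPM in LTi or ILC3 cells. For Nr4a2 the intervals of all neighbours in the order of fetal gates overlapped.

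**Figure D3:**
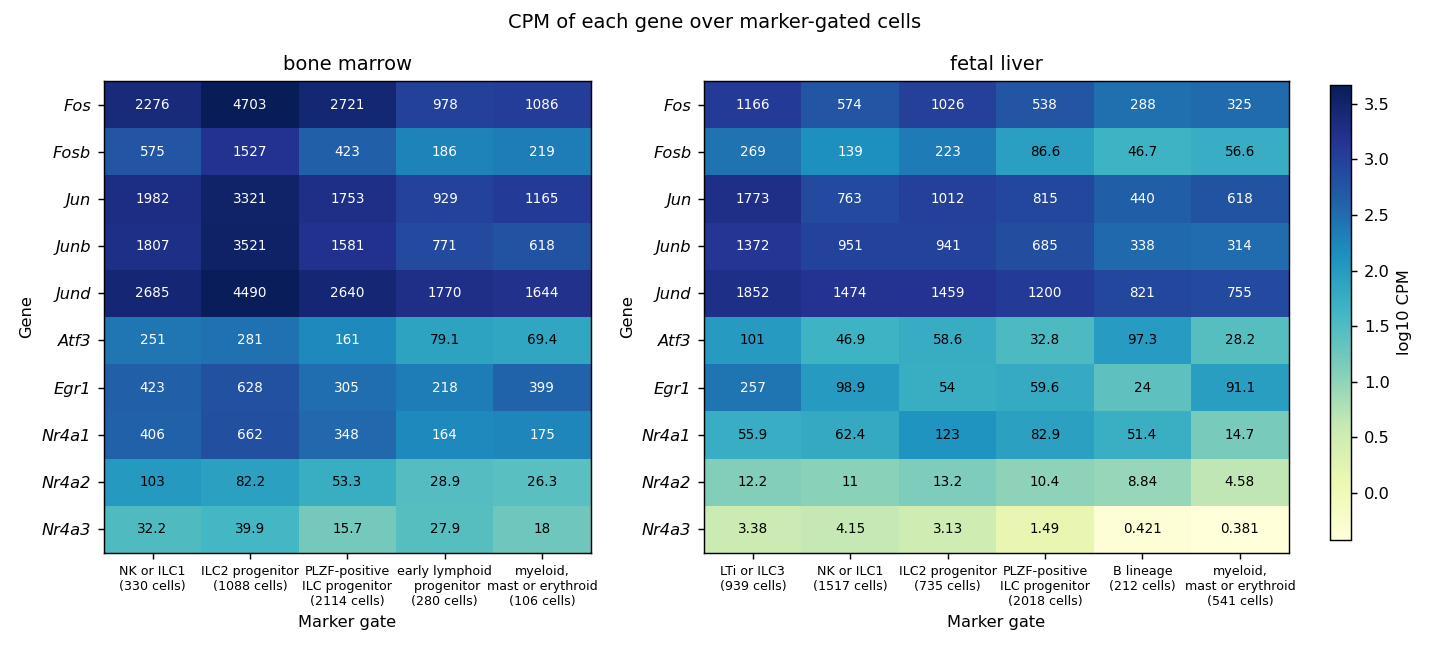
Level in CPM (printed in each field, colour on a log10 scale) of each gene in the marker gates with at least 50 cells, for bone marrow (left) and fetal liver (right). The ILC2 progenitor column is the highest for 9 of 10 genes in bone marrow, and the LTi or ILC3 column for 7 of 10 in fetal liver.

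Within a gate found in both tissues the members stayed higher in bone marrow per UMI. Past 2-fold were 10 of 10 in ILC2 progenitor cells (background 18.7%), 10 of 10 in PLZF-positive cells (10.8%), 8 of 10 in NK or ILC1 cells (9.13%) and 8 of 10 in myeloid, mast or erythroid cells (11.9%). The members under 2-fold were Junb and Jund in NK or ILC1 cells, at 0.93 and 0.87, and Jun and Junb in myeloid, mast or erythroid cells, at 0.92 and 0.98. Of the members with at least 50 CPM in the 3 innate gates, Egr1 in the ILC2 progenitor gate had the highest ratio, with 628 CPM in bone marrow and 54.0 CPM in fetal liver, a log2 ratio of 3.54 (3.40 to 3.68). In PLZF-positive cells Fos had 2721 CPM in bone marrow and 538 CPM in fetal liver, a log2 ratio of 2.34 (2.31 to 2.37).

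With both the gate and the UMIs per cell matched, at 4000 to 8000 UMIs, Fos had a log2 ratio of 1.94 in NK or ILC1, 1.72 in ILC2 progenitor and 1.81 in PLZF-positive cells. Nr4a1 had 2.95, 1.83 and 1.73 in these gates, and Egr1 1.84, 2.51 and 1.39. Jun had 1.11, 1.07 and 0.37, and Junb 0.59, 0.92 and 0.38. Jun, Junb and Jund had the lowest ratios of the 10 genes in each of these gates, while the order of the other 7 differed between gates. The ILC2 progenitor comparison rests on 191 bone marrow and 121 fetal liver cells, and Nr4a3 there on too few UMIs for a narrow interval (0.24 to 3.15).

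Spread over cells was measured after each cell was thinned to 2000 UMIs, which kept 5923 bone marrow and 8452 fetal liver cells. At that depth the median cell had a UMI of 6 of the 10 genes in bone marrow and of 4 in fetal liver. No member was detected in 8 bone marrow cells (0.135%) and 225 fetal liver cells (2.66%). The 10 genes together gave a median of 22 UMIs (8 to 49 between the first and ninth deciles) in bone marrow and 8 UMIs (2 to 20) in fetal liver.

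Most members varied more than counting alone gives, for which the variance over the mean is 1. That quantity was 5.46 in bone marrow and 3.20 in fetal liver for Fos, 3.82 and 3.40 for Jun, 3.71 and 2.80 for Jund, and 2.29 and 1.97 for Egr1. It was 1.12 in bone marrow and 0.996 in fetal liver for Nr4a3, whose sparse counts leave little to see. A Fos UMI was seen in 91.4% (90.7 to 92.1) of bone marrow cells and 59.0% (57.9 to 60.0) of fetal liver cells after thinning, and in 97.4% and 86.6% before it. For Nr4a1 the thinned shares were 50.7% (49.4 to 51.9) in bone marrow and 12.6% (11.9 to 13.3) in fetal liver, and the unthinned ones 67.5% and 38.2%.

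Atf3 was the most uneven of the 10 genes by excess variance over the squared mean, at 4.38 in bone marrow and 8.87 in fetal liver. Its UMIs were seen in 21.02% of thinned bone marrow cells, against 34.9% for a Poisson gene of the same mean, and the 10% of cells with the most held 74.3% of them. In fetal liver 8.14% of cells had an Atf3 UMI, against 11.9% for a Poisson gene. Within a gate the excess remained, with a variance over mean of 2.76 in bone marrow and 1.91 in fetal liver PLZF-positive cells. As a measure of free RNA, the haemoglobin gene Hbb-bs was seen in 0.604% of bone marrow and 1.20% of fetal liver cells of the innate gates, and Alb in 0 and 0.0235%. The exact upper bound for 0 of 3146 cells is 0.117%. Of all kept cells, 9.42% in bone marrow and 2.24% in fetal liver had an Nr4a3 UMI without thinning.

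**Figure D4:**
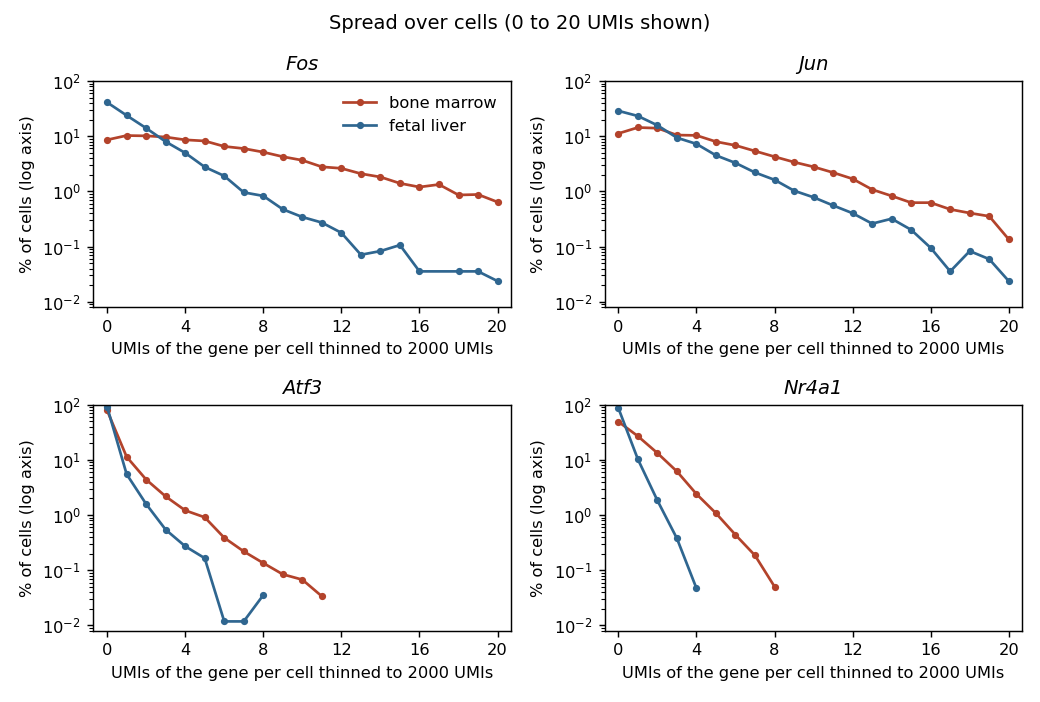
Share of cells (%, log axis) with each number of UMIs of Fos, Jun, Atf3 and Nr4a1 after thinning to 2000 UMIs per cell, for 5923 bone marrow and 8452 fetal liver cells; numbers with no cell are not drawn. Bone marrow has a flatter curve for Fos, with 8.59% of cells at 0 UMIs, and Atf3 has most cells at 0 with a tail up to 11 UMIs in bone marrow and 8 in fetal liver.

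Per-cell correlation was described with Spearman's rho over the same thinned cells. Cells of 1 library share its depth and preparation, so rho is given without a p. The 5 genes Fos, Fosb, Jun, Junb and Jund formed a block, with rho between 0.40 and 0.53 in bone marrow and between 0.18 and 0.40 in fetal liver. Jun with Jund was the highest of the 45 pairs in both tissues, at 0.53 in bone marrow and 0.40 in fetal liver. Of the pairs, 18 reached 0.2 in bone marrow and 8 in fetal liver. Egr1 stood beside the block, with Jun its highest partner at 0.25 in bone marrow and 0.22 in fetal liver. Nr4a1 went with Junb at 0.31 in bone marrow and 0.14 in fetal liver. The median rho of Atf3 with the other members was 0.136 in bone marrow and 0.089 in fetal liver. Nr4a2 and Nr4a3 had medians of at most 0.047 in either tissue. In sparse counts values of this size are no finding, that of Nr4a1 with Junb in fetal liver included.

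The higher rho of bone marrow moved with its higher counts. The median over pairs was 0.154 in bone marrow and 0.089 in fetal liver. With each gene thinned to the lower of its tissue means, the medians were 0.074 and 0.089, and Jun with Jund was at 0.40 in both. The pairs that reached 0.2 were then 9 in bone marrow and 8 in fetal liver. The share of such pairs among other genes was not computed. Within gates, where the means were not matched, the median was 0.115 in bone marrow and 0.053 in fetal liver NK or ILC1 cells. It was 0.091 and 0.077 in ILC2 progenitor cells, and 0.120 and 0.059 in PLZF-positive cells. Pairs of at least 0.2 were present inside single gates as well, 12 in bone marrow and 8 in fetal liver PLZF-positive cells.

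**Figure D5:**
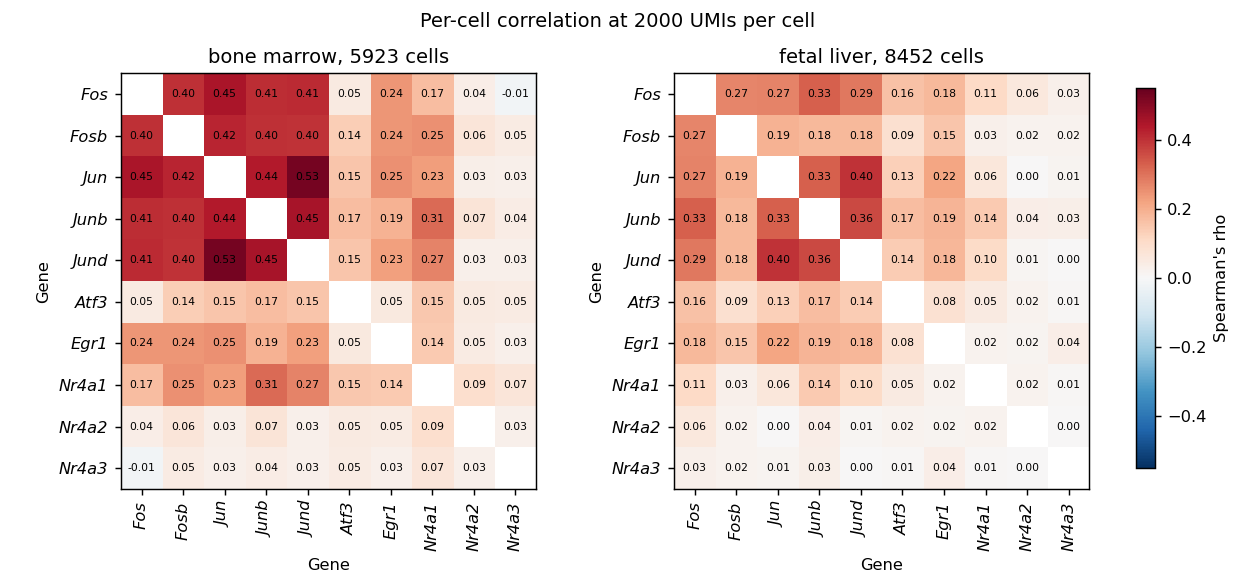
Spearman's rho for each pair of genes over cells thinned to 2000 UMIs, in bone marrow (left, 5923 cells) and fetal liver (right, 8452 cells). Fos, Fosb, Jun, Junb and Jund form a block of 0.40 to 0.53 in bone marrow and 0.18 to 0.40 in fetal liver.

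The genes whose counts went most closely with the sum of the 10 members were ranked among 2018 genes of at least 50 CPM in bone marrow and 2047 in fetal liver. In bone marrow they were Zfp36 (rho 0.62), Nfkbia (0.58), Ubb (0.57), Btg1 (0.55), Ier2 (0.54), Dusp1 (0.53), Zfp36l1 (0.45), Klf6 (0.42), Tnfaip3 (0.41) and Tmsb10 (0.34). In fetal liver they were Nfkbia (0.52), Ier2 (0.50), Zfp36 (0.35), Dusp1 (0.34), Cd69 (0.33), Gem (0.32), Ltb (0.32), Hmgn3 (0.31), Tmsb10 (0.31) and Lta (0.28). The lists shared 5 genes, that is 5 of 10 of each. Zfp36 encodes a protein that promotes decay of short-lived RNAs, Nfkbia the inhibitor of NF-kB, and Dusp1 a phosphatase that switches off MAP kinases. Ltb and Lta encode lymphotoxins, which LTi cells make.

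As a list, other immediate early genes leaned the same way in smaller measure. Of 25 with at least 10 CPM, 15 passed 2-fold toward bone marrow, against 10.9% of all genes, and 0 toward fetal liver, and their median log2 ratio was 1.21. The factor gene Klf4 had 206 CPM in bone marrow and 23.4 CPM in fetal liver, a log2 ratio of 3.14. The kinase gene Sik1 was at 2.66, the antiproliferative Btg1 at 2.66 and Zfp36 at 2.40. At 4000 to 8000 UMIs the count was 9 of 25, against 8.03% of all genes, with a median of 0.63. Klf4 was at 2.05 there, Sik1 at 2.28, Btg1 at 1.21 and Zfp36 at 1.19. Some genes turned toward fetal liver at that depth, Cd69 at -0.81, Gadd45b at -0.51, Gadd45g at -0.39, Rgs1 at -0.33 and Ier5 at -0.25. Ier3 turned the other way, from -0.37 over whole libraries to 1.10.

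Feedback phosphatases and inhibitors gave 7 of 12 past 2-fold toward bone marrow, against 10.9% of all genes, and 0 toward fetal liver, with a median of 1.14. Spry2, an inhibitor of receptor tyrosine kinase signalling, had 204 CPM in bone marrow and 36.8 CPM in fetal liver, a log2 ratio of 2.47. The phosphatase gene Dusp5 was at 1.97, Tnfaip3 at 1.84 and Tsc22d3 at 1.63. At 4000 to 8000 UMIs 3 of 13 were past 2-fold, against 8.03% of all genes, Spry2 was at 1.94, Dusp5 at 1.57, Tnfaip3 at 0.81 and Tsc22d3 at 0.41. Nfkbia turned its direction with depth, at 0.58 over whole libraries and -0.44 in these cells.

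The other AP-1 family and partner genes were less uneven over whole libraries. Of 17 with at least 10 CPM, 4 passed 2-fold toward bone marrow, against 10.9% of all genes, and 0 toward fetal liver, with a median of 0.66. With 4000 to 8000 UMIs per cell 2 of 17 passed it toward bone marrow, near the 8.03% of all genes, and 4 toward fetal liver. The latter 4 were Batf3 at -1.78, Batf at -1.38, Jdp2 at -1.30 and Atf6 at -1.06. The share of all genes past 2-fold toward fetal liver at that depth was not computed. The Fos relative Fosl2 was at 1.85, Mafk at 1.80, Atf7 at 1.58 and Maff at 1.15 over whole libraries, and at 0.90, 1.38, 1.13 and 0.08 in those cells. Of the MAP kinase cascade and the activators of serum response factor and CREB, 6 of 28 passed 2-fold toward bone marrow, against 10.9% of all genes, and 1 toward fetal liver, against 7.25%, with a median of 0.43. In the matched cells 4 of 27 passed it toward bone marrow, against 8.03% of all genes. Toward fetal liver 1 passed it, again with no share of all genes computed. Elk4 was at 1.69, Mef2d at 1.44, Elk3 at 1.27 and the kinase gene Rps6ka3 at 1.26, and at 1.42, 1.17, 0.68 and 1.19 in those cells.

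Heat shock genes were given as a list of another stress response. Of 12, 3 passed 2-fold toward bone marrow, against 10.9% of all genes, and 1 toward fetal liver, near the 7.25% of all genes, with a median of -0.43. Dnajb4 was at 1.88, Hspa1a at 1.32, Hspa1b at 1.29 and Hspd1 at -1.19. The summed level of the list was 5605 CPM in bone marrow and 8376 CPM in fetal liver. At 4000 to 8000 UMIs the median was 0.12. In those cells 2 of 12 passed 2-fold toward bone marrow, against 8.03% of all genes, and 0 toward fetal liver. Dnajb4 was at 1.61 there, Hspa1a at 0.75, Hspa1b at 1.46 and Hspd1 at -0.34.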

How the data were processed

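The authors deposited unnormalized UMI counts for each gene and barcode, made with a 10x Chromium 3' kit on an Illumina NovaSeq with barcodes not tied to cells filtered out, per the labels' protocols. The submitters' processing notes name mm10 and Seurat 4.0, and per the file headers the matrices come from software version 3.0.1. The sources used here name no aligner. The deposited gene and barcode lists hold no measurement. Cells needed 500 genes and at most 10% mitochondrial UMIs. Doublets were not called or removed. Counts were summed over cells and divided by total UMIs (CPM). Log2 ratios carry exact conditional 95% intervals, levels Poisson and shares Clopper-Pearson ones, all for counting error only. Correlation and spread used cells thinned to 2000 UMIs (seed 1). A 0 was set at 3 counts. TMM factors came from edgeR 4.0.16, and all else from numpy 2.4.6 and scipy 1.17.1. The ratio code was checked on simulated data. The members, the gene lists and the gates were chosen with earlier results of these data known. Named genes were all members, the 10 genes per tissue most like their sum, and the 4 of each list with the largest absolute log2 ratio at 10 CPM or more. Prdx2, Nfkbia and further list genes in the accounts of depth, the sort genes and the free RNA genes were named outside this rule, after their values were seen. Alternatives covered scaling, cell filters, thinning, division, gates and depth.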

Additional observations from a re-analysis of the deposited data

Results flagged for a closer look

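A pair of gates present in both tissues stood in opposite order in bone marrow and fetal liver for 4 genes, with 1 library per tissue, so the difference between the tissues was not tested. The share of all genes with such an opposite order was not computed, so the count is no trait of this set. Egr1 had a log2 ratio of ILC2 progenitor over NK or ILC1 cells of 0.57 in bone marrow and -0.87 in fetal liver. The log2 ratio of NK or ILC1 over PLZF-positive cells was -0.26 in bone marrow and 0.092 in fetal liver for Fos, 0.18 and -0.10 for Jun, and 0.22 and -0.41 for Nr4a1. At 4000 to 8000 UMIs the opposition was present for Jun, at 0.33 in bone marrow and -0.40 in fetal liver, and for Nr4a1, at 0.44 and -0.77. The order of Egr1 did not hold in bone marrow there, at -0.10 (-0.29 to 0.09), with -0.77 in fetal liver. The order of Fos held in neither tissue, at 0.04 (-0.02 to 0.10) in bone marrow and -0.09 (-0.17 to -0.003) in fetal liver.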

How the results depend on the processing

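The median log2 ratio of the members, 2.16, stayed above 1 under each alternative but 1 and moved beyond counting error under most. It was 2.00 with a median-ratio size factor and 2.03 with a TMM factor, which shifted all genes by -0.162 and -0.135, 2.09 with each cell weighing the same, 1.99 with at least 1000 genes per cell, 1.92 in cells thinned to 2000 UMIs, 1.87 without dividing cells, 2.10 without the B lineage and myeloid gates, 2.36 with shared innate gates weighing the same, and 2.33 against fetal cells with a Y-linked and no Xist UMI. At 2000 to 4000, 4000 to 8000 and 8000 to 16000 UMIs per cell, ranges added after the data were seen, it was 1.21, 1.25 and 1.33, and with UMIs per cell and no scaling, also added, 0.79. The dividing and gate contrasts at 4000 to 8000 UMIs were added in the same way. The count of members at least 2-fold higher, 10, was 5 at 2000 to 4000 UMIs and 4 with no scaling, and between 7 and 10 otherwise. With no scaling Jun reversed to -0.16, Junb to -0.013 and Jund to -0.15. No other of 160 member values reversed. The median correlation of bone marrow, 0.154, was 0.090 in cells thinned to 1000 UMIs and 0.074 at matched means, and that of fetal liver, 0.089, was 0.151 on unthinned CPM, where it exceeded the bone marrow value of 0.108. No paired analysis was possible because there was 1 library per tissue. Depth limits Nr4a3, with 199 UMIs in fetal liver.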
